A study of Mus musculus with 2 samples.

Results

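The insulin-like growth factor (IGF) axis was followed, as 10 genes, through a stromal cell preparation of the mouse submandibular gland. They were taken by name from the 20140 genes of the deposited tables: the ligands Igf1 and Igf2, the receptors Igf1r and Igf2r, and the 6 binding proteins Igfbp2, Igfbp3, Igfbp4, Igfbp5, Igfbp6 and Igfbp7. All 10 members had a row in every table. The glands came from female C57BL6/J mice aged 14 weeks, with no transgene or targeted allele named in the labels. In the ligated group a metal clip closed the main ducts that drain the submandibular gland and the sublingual gland for 14 days. In the mock group these ducts were located but no clip was set, again 14 days before collection. Each group was 1 droplet single-cell library made from 2 pooled glands, with epithelial cells bearing EpCAM and red blood cells bearing Ter119 depleted by beads and dead cells removed. With 1 library per group no difference has a replicate check, and every value describes these 2 libraries. The comparison asks how expression of the axis differs by cluster once the ducts have been blocked.

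IGF1 and IGF2 are secreted ligands that signal through the tyrosine kinase receptor IGF1R, while IGF2R carries IGF2 into the cell for degradation. In tissue fluid most IGF is held by binding proteins, which can keep the ligands from the receptor or deliver them to it. Proteases such as PAPP-A cleave some of the binding proteins and set IGF free.

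The tables hold the mean level of each gene in each cluster, in UMIs of the gene (unique molecular identifiers, each marking 1 captured RNA molecule) per 10000 UMIs of the cell. Levels below are in this unit. The tables cover 12 clusters of all cells, with 11406 cells from the ligated and 4199 from the mock library, and 5 clusters of a smaller subset of cells, which its name ties to PDGF receptors and Gli1, with 1935 and 401 cells. The subset comes from the same 2 libraries and is no independent support. Against marker lists the clusters of all cells read as endothelial-like (cluster 0), natural killer-like (1), T cell-like (2), fibroblast-like (3), a second endothelial-like cluster (4), macrophage-like (5), mural-like (6, pericytes and vascular smooth muscle), ductal-like (7), Schwann-like (9) and erythroid-like (10). Cluster 4 detected 8 of 8 arterial markers at 0.5 or more, with 4 of 6 venous and 4 of 7 lymphatic ones, so it joins several vessel types. Cluster 10 also detected 10 of 11 endothelial markers. Clusters 8 and 11 kept no name. In the subset, cluster 0 was fibroblast-like, cluster 2 mural-like, cluster 3 endothelial-like and cluster 4 a second fibroblast-like cluster.

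Differences are given as log2((ligated + 0.1)/(mock + 0.1)), a scale that shrinks the change of low genes. A difference was past the size rule where the higher level was at least 0.5 and the difference at least 1 in size. A cluster entered the comparison if both libraries had 50 or more cells in it, as 9 clusters of all cells and 3 of the subset did. Fold values carry 95% intervals from estimated UMI numbers, which cover counting error only and are probably too narrow because those numbers lean on the deeper cells.

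In the 9 compared clusters 40 of 90 pairs of member and cluster reached the minimum level, and 16 were past the size rule higher in the ligated library and 1 lower. Over all genes, 6.89% of such pairs were past the rule higher and 4.17% lower. The pairs past the rule came from 6 members: Igfbp3, Igfbp4, Igfbp7, Igf1 and Igf2 on the higher side, and Igfbp5 on the lower. Most of the 16 were Igfbp3 or Igfbp4, and pairs of the same gene are not separate observations. Only 8 of the 16 stayed past the rule after the background subtraction described below. In the subset 20 of 30 pairs reached the minimum, 4 were past the rule higher and 0 lower, against 5.12% and 4.58% of all pairs.

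**Figure D1:**
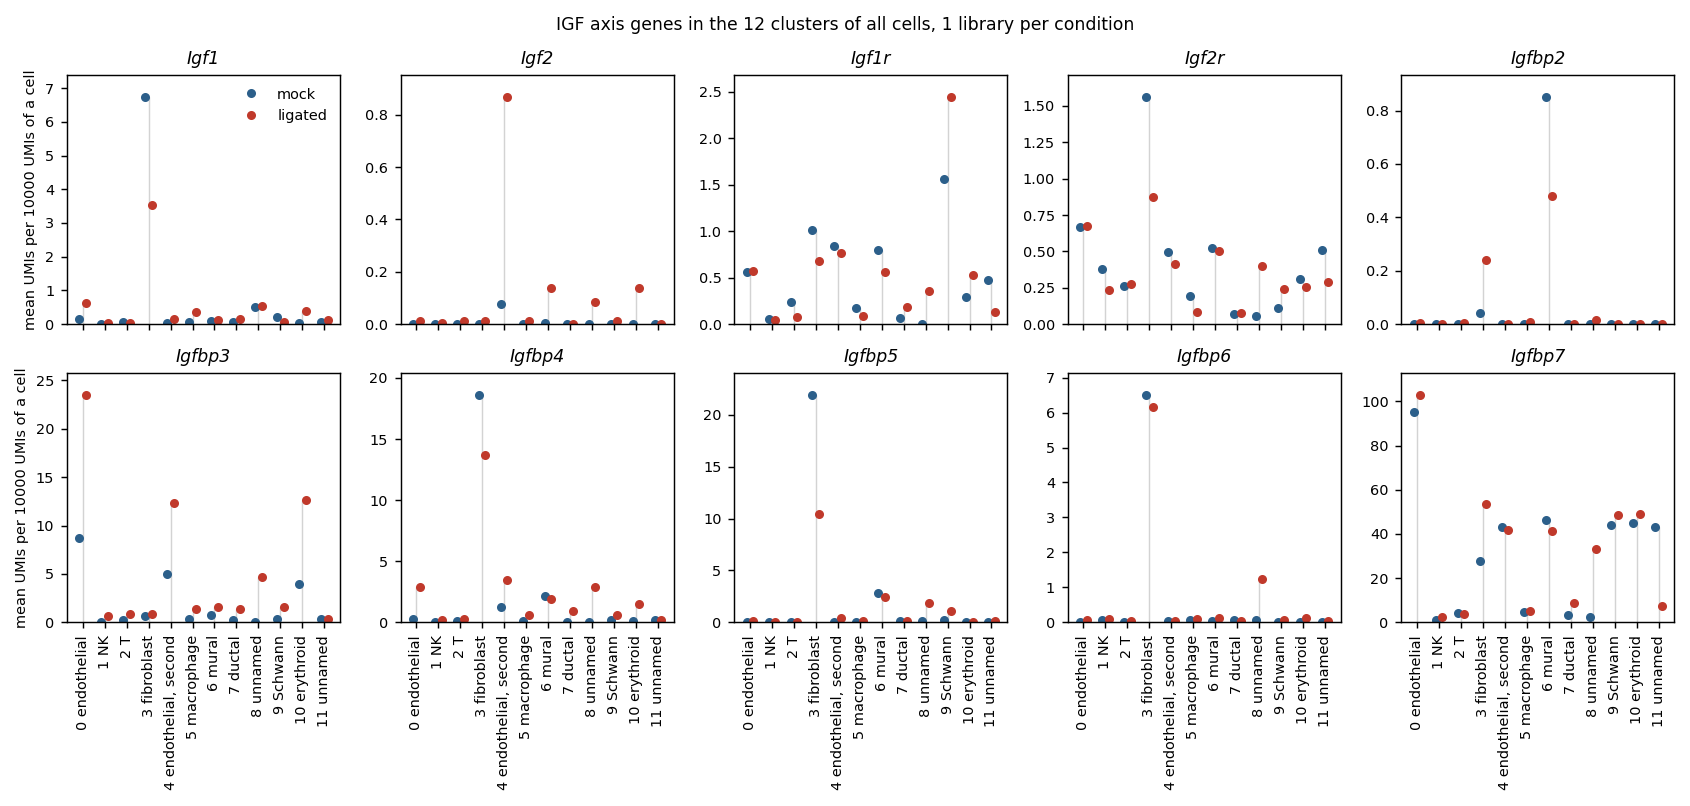
Mean level of the 10 genes in the 12 clusters of all cells, in UMIs per 10000 UMIs of a cell, on linear axes that differ between panels; each point is 1 library (blue mock, red ligated). Igf1, Igfbp4, Igfbp5 and Igfbp6 have their highest points in the fibroblast-like cluster, Igfbp3 and Igfbp7 in the endothelial-like cluster 0.

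**Figure D2:**
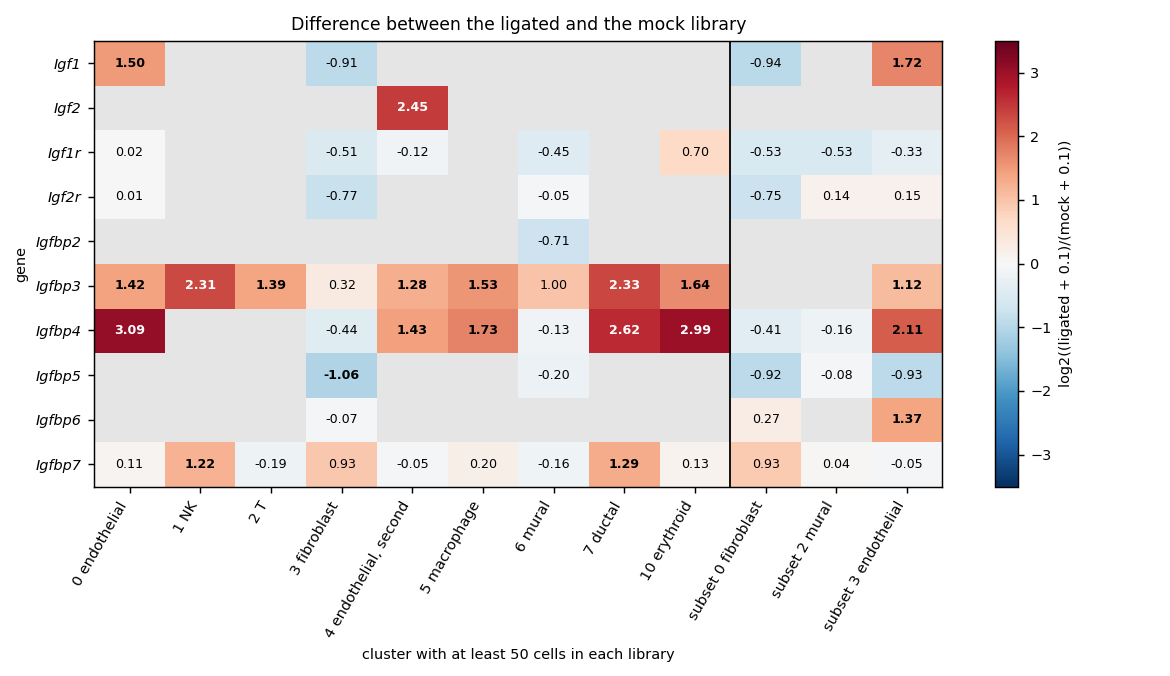
Difference of each gene between the ligated and the mock library, as log2((ligated + 0.1)/(mock + 0.1)), in the 9 compared clusters of all cells and the 3 of the subset; grey cells have both levels below 0.5 and bold numbers are past the size rule. The largest difference shown is 3.09 for Igfbp4 in the endothelial-like cluster 0, and the mural-like value of Igfbp3, printed as 1.00, is just under the rule.

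On GRCm38 with GENCODE annotation, Igf1 lies at chr10:87858265-87937042 on the plus strand and Igf2 at chr7:142650766-142666816 on the minus strand. Igf1r lies at chr7:67952827-68233668 (plus) and Igf2r at chr17:12682406-12769664 (minus). Igfbp2 at chr1:72824503-72852474 (plus) and Igfbp5 at chr1:72857932-72874884 (minus) are neighbours that converge with 5457 bases between them. Igfbp3 lies at chr11:7206086-7213923 (minus), Igfbp4 at chr11:99041244-99054392 (plus), Igfbp6 at chr15:102144362-102149511 (plus) and Igfbp7 at chr5:77349240-77408041 (minus). All 10 are protein-coding genes. An exon of Gm49394 overlaps Igf2 on its own strand, and exons of Igf2os overlap Igf2 and of Polr2b overlap Igfbp7 on the opposite strand. How the counting treated such overlaps is not given in the sources used here, so the levels of Igf2 and Igfbp7 may include reads of these genes.

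RefSeq promoters (GRCm38.p6) were found for 10 of 10 members. Those of 3 genes are printed because these genes carry the main differences: Igfbp3 and Igfbp4 were higher in both endothelial-like clusters of the ligated library, and Igfbp5 was lower in its fibroblasts. Each run is the 250 bases before the start site, 5′ to 3′ on the gene's strand: chr11:7213924-7214173 (minus) for Igfbp3, chr11:99040994-99041243 (plus) for Igfbp4 and chr1:72874866-72875115 (minus) for Igfbp5. Capitals mark a TATAAA box.
Igfbp3: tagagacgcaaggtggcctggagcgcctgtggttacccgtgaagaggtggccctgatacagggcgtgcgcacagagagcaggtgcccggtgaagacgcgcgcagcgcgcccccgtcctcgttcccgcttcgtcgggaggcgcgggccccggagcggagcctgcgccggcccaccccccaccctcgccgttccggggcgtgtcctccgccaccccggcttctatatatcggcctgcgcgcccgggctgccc
Igfbp4: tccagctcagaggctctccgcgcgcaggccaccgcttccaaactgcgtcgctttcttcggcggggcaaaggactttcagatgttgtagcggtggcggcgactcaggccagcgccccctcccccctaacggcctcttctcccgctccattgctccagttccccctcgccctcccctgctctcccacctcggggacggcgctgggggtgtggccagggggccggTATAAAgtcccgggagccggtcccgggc
Igfbp5: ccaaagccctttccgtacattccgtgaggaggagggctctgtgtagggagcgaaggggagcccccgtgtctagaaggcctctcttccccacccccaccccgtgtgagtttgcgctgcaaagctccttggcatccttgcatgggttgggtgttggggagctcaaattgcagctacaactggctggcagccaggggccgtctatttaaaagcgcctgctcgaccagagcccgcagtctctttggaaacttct
The 5 motifs were searched on both strands in the forms given here only. These were TATAAA (a strict form of the TATA box), GGGCGG (the GC box), ACGTG (the hypoxia response core), GTAAACA (a FOXO site) and TTCNNNGAA (a STAT site). They occur in 12.4%, 32.7%, 16.6%, 3.17% and 7.02% of 32851 promoters of this length, in that order. Igfbp4 holds a TATAAA whose first base is at -28 from the start site and none of the other motifs. Igfbp3 and Igfbp5 hold none of these 5 strings in this window, so none was common to Igfbp3 and Igfbp4. Looser TATA-like forms were not searched, and the Igfbp3 run holds a tatatat near its end. GC content was 73.2% for Igfbp3, 69.2% for Igfbp4 and 58.8% for Igfbp5, against a median of 52.4% over all promoters. Igfbp7 holds 4 GC boxes, with first bases at -110, -96, -74 and -44, and 1 ACGTG at -175.

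Igf1, the growth hormone-responsive ligand, was highest in fibroblasts, where its level was lower in the ligated library without passing the rule, and was past the rule higher in the main endothelial cluster. In the fibroblast-like cluster 3 its level was 3.53 in the ligated library and 6.73 in mock, the highest of the 12 clusters in both. The difference was -0.91, or 1.90-fold higher in mock (interval 1.80 to 2.01), which is under the size rule. The subset's fibroblast-like cluster gave 3.67 and 7.16, a difference of -0.94. In the endothelial-like cluster 0 Igf1 stood at 0.631 in the ligated library and 0.158 in mock, a 3.98-fold difference (3.54 to 4.49) past the rule. With a pseudocount of 1 that difference was 0.49 and no longer past it.

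The endothelial Igf1 level was set beside markers of other cell types, since free RNA can give UMIs in cells that do not express a gene. The median share of these markers is called background RNA below. Free RNA itself was not measured and doublets were not called, so the source of these UMIs was not tested. In cluster 0 Igf1 stood at 108% (ligated) and 38.6% (mock) of its own library mean. Markers of other cell types stood there at a median of 9.63% and 4.96%, and the 11 fibroblast markers at a median of 7.23% and 2.56%. The summed fibroblast marker level in that cluster was 2.27 in the ligated library and 0.321 in mock, so these genes were higher there as well. With the fibroblast marker share taken off, the Igf1 difference was 1.47, against 1.50 as deposited. Of all Igf1 in a library, the fibroblast-like cluster held 60.9% in ligated and 73.4% in mock, and the endothelial-like cluster 27.9% and 21.7%. Macrophage-like cells had Igf1 at 0.350 and 0.0647, below the minimum level.

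Igf2, the imprinted ligand, was highest in the second endothelial-like cluster of both libraries and was higher there in the ligated one. Its level in cluster 4 was 0.867 in ligated and 0.0765 in mock, a difference of 2.45 past the rule. The fold was 11.3 (6.36 to 23.4), resting on an estimated 299 and 11 UMIs. Cluster 4 held 71.3% of all Igf2 in the ligated library and 94.7% in mock. Outside it the mock library listed Igf2 above 0 only in the mural-like cluster, at 0.00597 against 0.137 in ligated. In the mock endothelial-like cluster 0 Igf2 was at 0, where 3 UMIs would have given 0.00143, and in the ligated one at 0.0138. With a pseudocount of 1 the cluster 4 difference was 0.79.

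The vessel types within cluster 4 were compared because it joins several. The summed arterial markers there were 30.3 in the ligated library and 30.9 in mock and the lymphatic ones 10.8 and 9.54. The venous sum was 4.04 and 8.78, with 3 of 6 markers past the rule lower in ligated. The part of these proportions in the Igf2 difference was not tested.

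Neither receptor, Igf1r or Igf2r, was past the size rule in any compared cluster. Igf1r, the signalling receptor, stood at 0.574 in the ligated library and 0.563 in mock in endothelial-like cluster 0, a difference of 0.02 and a fold of 1.02 (0.945 to 1.10). It was 0.761 and 0.839 in cluster 4, 0.684 and 1.02 in the fibroblast-like and 0.557 and 0.799 in the mural-like cluster. The fibroblast difference was -0.51. The highest Igf1r level was in the Schwann-like cluster, at 2.44 in ligated and 1.56 in mock, which had too few mock cells (17) to be compared. In T cell-like cells Igf1r was 0.0823 and 0.233, below the minimum.

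Igf2r, the receptor that clears IGF2 and sorts lysosomal enzymes, was most abundant in fibroblasts, at 0.871 in the ligated library and 1.56 in mock. That difference was -0.77, or 1.79-fold higher in mock (1.59 to 2.01), and the subset's fibroblast-like cluster gave 0.914 and 1.60. In endothelial-like cluster 0 the levels were 0.674 and 0.667, a difference of 0.01. Natural killer-like cells had 0.236 and 0.379. Both receptors thus had lower levels in the ligated fibroblasts, without passing the rule, and nearly equal ones in the main endothelial cluster.

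Igfbp3, the main IGF carrier of serum, was an endothelial transcript and was higher after ligation in both endothelial-like clusters of all cells, in that of the subset and in the erythroid-like cluster. In cluster 0, where 3 of 6 members at the minimum level were past the rule higher (Igf1, Igfbp3 and Igfbp4, against 3.92% of all genes), Igfbp3 stood at 23.4 in ligated and 8.69 in mock. The fold was 2.70 (2.65 to 2.74). Cluster 4 had 12.3 and 5.01 (fold 2.46, 2.28 to 2.67), and there 3 of 5 members, Igf2, Igfbp3 and Igfbp4, were past the rule higher, against 3.29% of all genes. The endothelial-like cluster of the subset had 15.9 and 7.28, and the erythroid-like cluster, which carries endothelial markers, 12.6 and 3.97. In that erythroid-like cluster 2 of 4 members were past the rule higher, but 23% of all genes were, and the median gene was shifted by 0.56. Endothelial-like cluster 0 held 82.0% of all Igfbp3 in the ligated library and 91.7% in mock.

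Elsewhere Igfbp3 was past the rule at shares of its ligated library mean close to those of markers of other cell types. In natural killer-like cells it was 0.628 in ligated and 0.0467 in mock, in T cell-like cells 0.832 and 0.257, in macrophage-like cells 1.35 and 0.399 and in ductal-like cells 1.41 and 0.200. As a share of its library mean this is 8.50%, 11.3%, 18.2% and 19.1% in the ligated library, where markers of other cell types stood at 7.40%, 9.16%, 20.6% and 21.9%. The members past the rule in these clusters were Igfbp3 and Igfbp7 in natural killer-like cells (3% of all genes were higher), Igfbp3 in T cell-like cells (3.08%), Igfbp3 and Igfbp4 in the macrophage-like cluster (4.15%) and Igfbp3, Igfbp4 and Igfbp7 in the ductal-like cluster (14.8%). After a share of the library mean profile equal to those markers was taken off, none of these 8 pairs was past the rule. For 7 of them the difference was then under 1, and Igfbp4 in the ductal-like cluster, still at 2.11, dropped out because its level was under the minimum. Recovered UMI totals of ductal-like cells had a median of only 1037 in ligated and 1105.5 in mock, so the mock Igfbp4 level of 0.0625 rests on few UMIs. Igfbp7 in T cell-like cells, not past the rule as deposited, came to -4.37. The 8 that remained higher were Igf1, Igfbp3 and Igfbp4 in cluster 0, Igf2, Igfbp3 and Igfbp4 in cluster 4, and Igfbp3 and Igfbp4 in cluster 10. Fibroblasts had 0.830 and 0.645 of Igfbp3, and the subset's fibroblast-like cluster 0.276 and 0.457, so the direction differed between the tables.

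**Figure D3:**
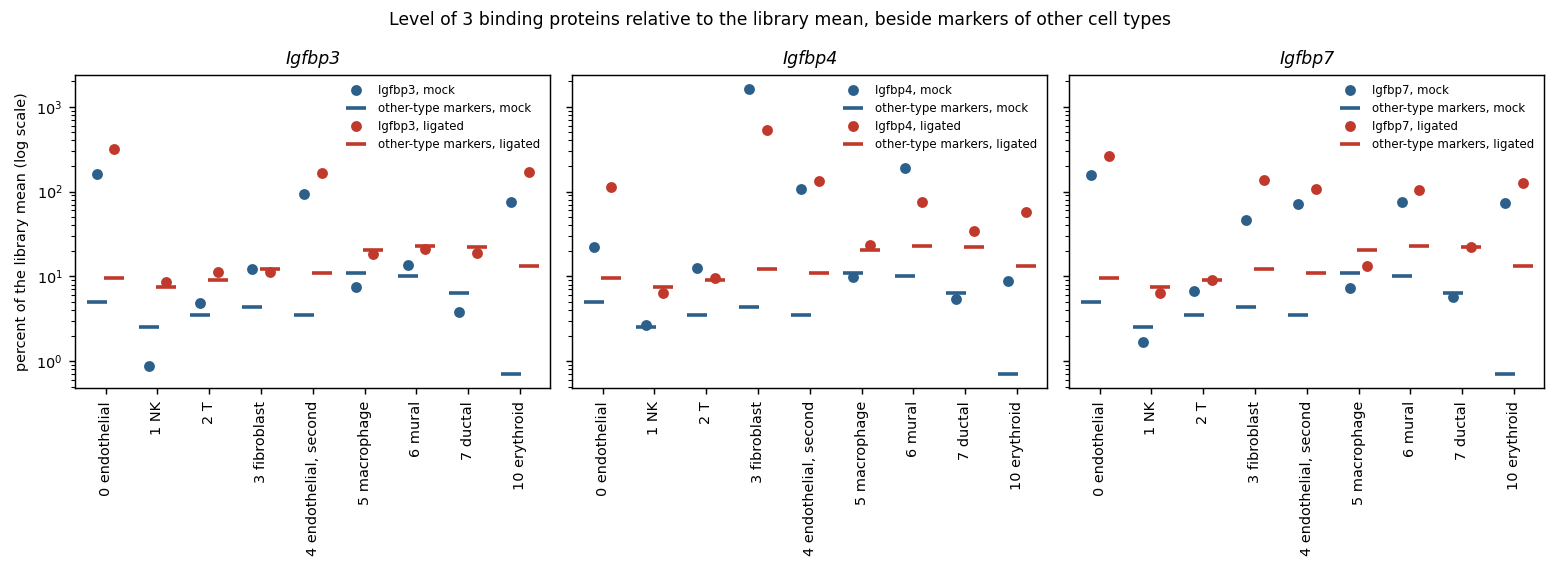
Level of Igfbp3, Igfbp4 and Igfbp7 as a percent of the library mean, on a log axis, in the 9 compared clusters (points; blue mock, red ligated), beside the median of the same percent over markers of other cell types (dashes). Igfbp3 and Igfbp4 points of the endothelial-like clusters 0 and 4 stand above the dashes in both libraries, and those of the natural killer-like and macrophage-like clusters lie near or below them.

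Igfbp4, which holds IGF away from the receptor until PAPP-A cleaves it, had the largest difference of any member in a compared cluster. In endothelial-like cluster 0 it stood at 2.90 in the ligated library and 0.253 in mock, a difference of 3.09 and a fold of 11.5 (10.5 to 12.5). Relative to the library mean this was 112% and 22.2%, above the 9.63% and 4.96% of other-type markers and the 7.23% and 2.56% of fibroblast markers. With the fibroblast marker share taken off the difference was 3.12. Cluster 4 had 3.47 and 1.22 (fold 2.84, 2.42 to 3.34), and the erythroid-like cluster 1.50 and 0.102. Summed fibroblast markers were 2.78 and 0.701 in cluster 4 and 2.68 and 0.126 in the erythroid-like cluster, and their part in the Igfbp4 differences there was not tested beyond the subtraction.

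Fibroblasts had the highest Igfbp4 level and did not share this difference. The fibroblast-like cluster held 13.7 in ligated and 18.6 in mock (difference -0.44), and the subset's 14.4 and 19.2. Mural-like cells had 1.95 and 2.14. The share of all Igfbp4 found in endothelial-like cluster 0 was 29.0% in the ligated library and 12.5% in mock, and the fibroblast share 53.3% and 72.9%. The macrophage-like cluster had 0.605 and 0.113 and the ductal-like cluster 0.897 and 0.0625. In the ligated library this was 23.4% and 34.6% of the library mean, beside 20.6% and 21.9% for markers of other cell types. Fibroblast markers summed to 6.86 in ligated and 1.31 in mock in the ductal-like cluster.

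In the endothelial-like cluster of the subset 4 of 8 members were past the rule higher, against 6.29% of all genes. They were Igf1 (1.22 and 0.301), Igfbp3 (15.9 and 7.28), Igfbp4 (5.06 and 1.09) and Igfbp6 (1.25 and 0.422, ligated first). Fibroblast markers moved with them: their sum in this cluster was 72.8 in the ligated library and 20.7 in mock, with 9 of 11 past the rule higher. Endothelial markers summed to 109 and 168. The part of fibroblast RNA in the Igf1, Igfbp4 and Igfbp6 differences was not tested. Igfbp5, also a fibroblast gene, was 2.29 and 4.46 here, and was likewise lower in the ligated fibroblast-like cluster of the subset, at 10.3 and 19.5. With a pseudocount of 1 the differences of Igf1 and Igfbp6 were 0.77 and 0.66, under the rule.

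Igfbp5, a binding protein that attaches to matrix and is cut by PAPP-A, was the 1 member past the rule lower. In the fibroblast-like cluster its level was 10.4 in the ligated library and 21.9 in mock, a difference of -1.06 and 2.09-fold higher in mock (2.03 to 2.16). It was the 1 of 8 members lower past the rule in that cluster, against 5.32% of all genes. The call is at the edge of the rule: the subset's fibroblast-like cluster gave 10.3 and 19.5, a difference of -0.92. There 0 of 7 members were past the rule in either direction, against 10.1% of all genes. Fibroblast markers in the cluster summed to 292 in ligated and 347 in mock, and acinar markers to 0.645 and 8.32, and their part in the fibroblast differences was not tested. Mural-like cells had 2.45 and 2.84, and fibroblasts held 81.8% of all Igfbp5 in ligated and 87.7% in mock.

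Igfbp6, which prefers IGF2, was as fibroblast-restricted as Igfbp5 but close between libraries. The fibroblast-like cluster had 6.16 in ligated and 6.49 in mock, a difference of -0.07, and the subset's 6.13 and 5.07. Fibroblasts held 86.9% and 91.3% of all Igfbp6.

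Igfbp7, a low-affinity binding protein of vessel walls, was nearly level in vessels, and its level in fibroblasts was higher in the ligated library at just under the rule. The endothelial-like cluster 0 had 103 in ligated and 95.4 in mock (difference 0.11), cluster 4 had 41.8 and 43.2 and mural-like cells 41.2 and 46.1. In the fibroblast-like cluster the level was 53.5 and 28.0, a fold of 1.91 (1.87 to 1.96), and in the subset's 54.3 and 28.5. These differences of 0.93 and 0.93 are just under the rule. In natural killer-like cells Igfbp7 was 2.50 and 1.01, or 6.36% and 1.66% of the library mean against 7.40% and 2.49% for markers of other cell types. The ductal-like cluster had 8.64 and 3.48.

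Igfbp2, a carrier with an integrin-binding motif, was in mock highest in the mural-like cluster of all cells, but not in that of the subset. In the ligated library it was also found in fibroblasts. Mural-like cells had 0.479 in ligated and 0.850 in mock, a difference of -0.71. Fibroblasts had 0.241 and 0.0409, and the subset's fibroblast-like cluster 0.271 and 0.0270, all below the minimum level. The fibroblast-like cluster held 54.4% of all Igfbp2 in ligated and 5.15% in mock, and the mural-like cluster 39.5% and 91.7%. These shares follow the cell numbers of each library. With every cluster weighted equally, the fibroblast share was 32.0% and 4.58% and the mural share 63.6% and 95.2%, so the mural-like cluster led in both. In the mural-like cluster of the subset Igfbp2 was 0.0451 and listed at 0, while the subset's endothelial-like cluster had 0.0399 and 0.0957. No member was past the rule in the mural-like cluster 6 (0 of 7, against 9.41% of all genes) or in that of the subset (0 of 5, against 8.51%).

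Because a UMI counts 1 molecule, the 6 binding proteins of a cluster can be set in proportion. In fibroblasts Igfbp7 made up 63.1% of their summed UMIs in ligated and 37.0% in mock, Igfbp5 12.3% and 28.9%, and Igfbp4 16.1% and 24.6%. In endothelial-like cluster 0 Igfbp7 made up 79.5% and 91.4%, Igfbp3 18.1% and 8.33%, and Igfbp4 2.24% and 0.243%. The share of Igfbp7 was thus higher in the ligated fibroblasts and lower in the ligated endothelium than in mock.

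**Figure D4:**
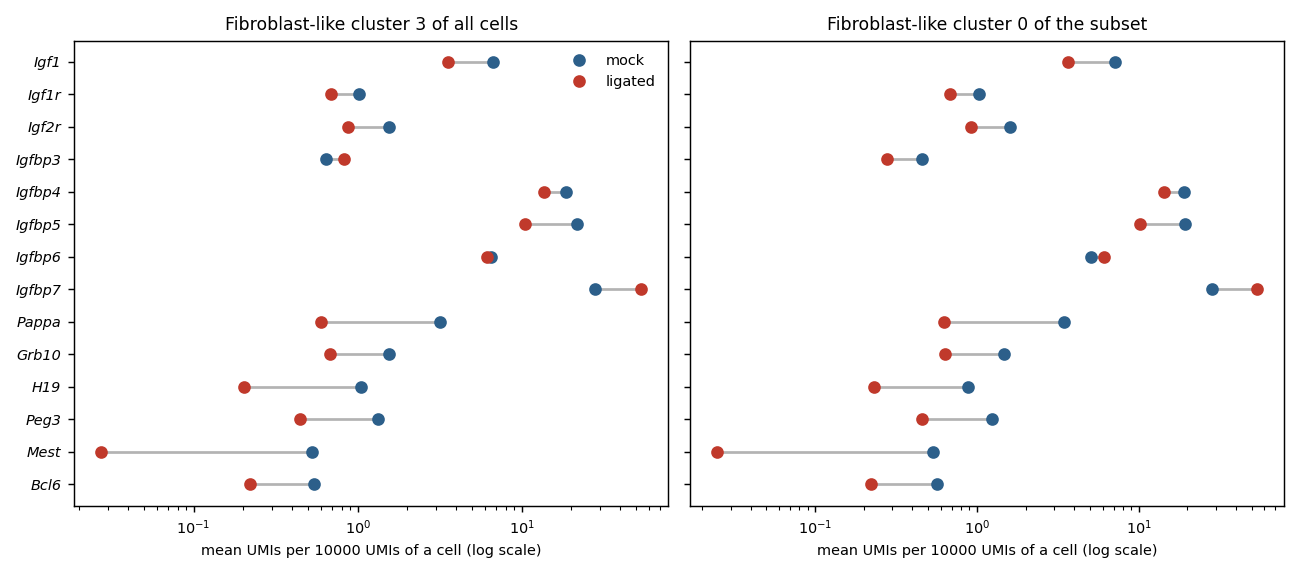
Levels in the fibroblast-like cluster of all cells (left) and of the subset (right), in UMIs per 10000 UMIs of a cell on a log axis, for the members with a level of at least 0.5 in the left cluster and the 6 pathway genes past the size rule; each point is 1 library. Igfbp7 is higher in the ligated library, Igf1, Igf1r, Igf2r, Igfbp4 and Igfbp5 are lower, and Igfbp3 and Igfbp6 change order between the tables.

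The library means mix these differences with the make-up of the libraries. Endothelial-like cluster 0 was 25.8% of the ligated cells and 56.3% of the mock cells, and the fibroblast-like cluster 10.1% and 4.48%. Igfbp7 averaged 39.3 in the ligated library and 60.9 in mock, a difference of -0.63. With both libraries given the mock cell mix, the averages were 66.5 and 60.9, a difference of 0.13. Igfbp3 went from 0.46 to 1.42 under the same weighting, and Igfbp5 from 0.19 to -0.66. Igfbp6 went from 0.96 to 0.10. Igfbp4 gave 1.12 and 1.15, and was the 1 member whose library mean was past the rule with each library's own mix. With every cluster weighted equally its difference was 0.32.

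**Figure D5:**
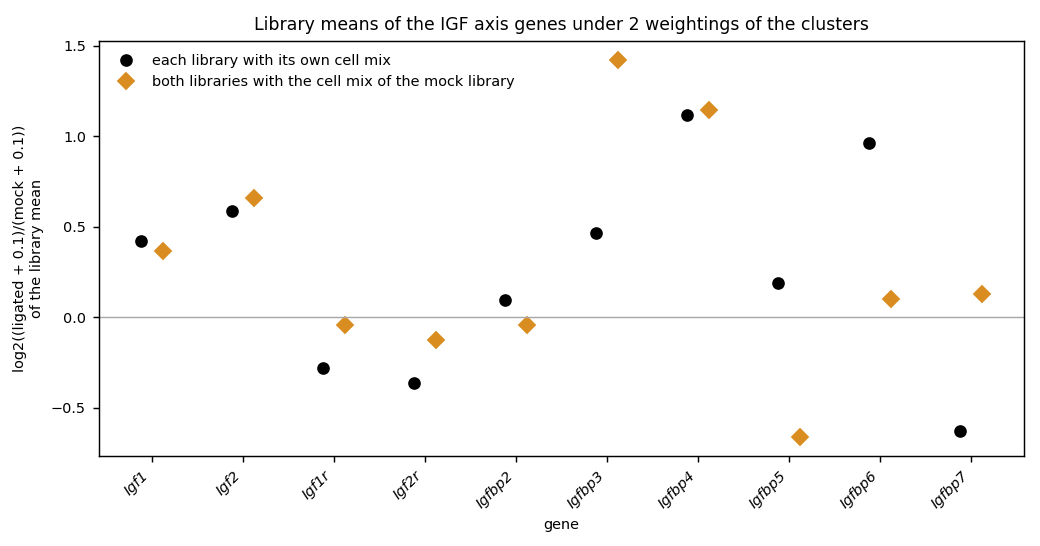
Difference of the library mean of each gene, as log2((ligated + 0.1)/(mock + 0.1)), with each library's own cell mix (black circles) and with the mock cell mix for both (orange diamonds). Igfbp2, Igfbp5 and Igfbp7 lie on opposite sides of 0 under the weightings, at 0.09 and -0.04, 0.19 and -0.66, and -0.63 and 0.13.

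The wider pathway was read from 7 lists of 71 genes, of which 67 had a row. They cover growth hormone input and IGFBP proteases, other carriers, other receptors, adaptors, the PI3K, AKT and mTOR chain, FOXO factors, and imprinted genes. Among the fibroblast-like cells of cluster 3, 6 of 32 tested list genes were past the rule lower and 0 higher, beside 5.32% of all genes lower, with a median difference of -0.34 against -0.06 for all genes. The same 6 genes were past it in the subset's fibroblast-like cluster, which comes from the same libraries. Pappa, the protease that cleaves IGFBP4 and IGFBP5, stood at 0.600 in ligated and 3.20 in mock (5.33-fold higher in mock, 4.84 to 5.86). Its inhibitor Stc2, singled out after its values were seen, was 0.374 and 0.112, below the minimum. Stc1, of the same list and also named after its values were seen, was not past the rule in these cells. Its library means were 0.422 in ligated and 0.816 in mock, the other way from those of Stc2 (0.0562 and 0.0181). Library means also follow the cell mix, so they do not give the direction of Stc1 in fibroblasts. Grb10, an adaptor that dampens the receptor, was 0.674 and 1.56, and Bcl6, a FOXO target, 0.219 and 0.543, and both are named here after their values were seen, since they lie outside the 4 largest.

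Of the 6, 3 came from the list of IGF2 mRNA binding and imprinted genes, which had 6 tested genes in cluster 3. The count follows the lists as drawn up, not the imprinting state of every gene. H19, a noncoding RNA whose gene lies 72622 bases from Igf2, was 0.203 in ligated and 1.05 in mock, Mest 0.0273 and 0.524, and Peg3 0.447 and 1.32. Dlk1, another imprinted gene, was higher in ligated mural-like cells, at 0.561 and 0.158, as 1 of 26 list genes there, beside 4.92% of all genes.

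In endothelial-like cluster 0, 1 of 19 tested list genes was past the rule higher, near the 3.92% of all genes. It was Insr, the insulin receptor, which can pair with IGF1R, at 2.52 in ligated and 0.628 in mock (fold 4.01, 3.77 to 4.25). In the second endothelial-like cluster Insr was 1.18 and 0.998, and 0 of 26 list genes were past the rule, against 6.1% of all genes in either direction. In the endothelial-like cluster of the subset Insr was 1.78 and 0.265. There 4 of 27 list genes were past the rule higher (Insr, Htra3, Meg3 and Lrp1) and 0 lower, beside 6.29% of all genes higher. Fibroblast markers were also higher in that cluster, and their part in these differences was not tested. Insr was 1.09 and 0.205 in the erythroid-like cluster with endothelial markers. In natural killer-like cells 0 of 9 list genes were past the rule and in T cell-like cells 0 of 10, beside 4.56% and 5.34% of all genes. Macrophage-like cells had 1 of 15 past it lower (Pik3ca, a catalytic subunit of PI3K, at 0.256 and 0.753), beside 4.34% of all genes. The erythroid-like cluster had 3 of 17 higher, Insr among them, which is below the 23% of all genes there. In the ductal-like cluster 4 of 14 were higher and 2 lower, beside 14.8% and 11.6% of all genes.

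Genes most like each member in pattern were ranked among 3928 genes by Pearson's r of log2(level + 0.1) over the 12 clusters, whose columns share libraries and depth. Igf1 was most like Rspo3 (0.94), Igf2 like St8sia6 (0.95), Igf1r like Dag1 (0.98) and Igf2r like Prrc2b (0.92). Igfbp2 was most like Steap4 (0.99), Igfbp3 like Lipe (0.97), Igfbp4 like Fbn1 (0.96), Igfbp5 like Bgn (0.99), Igfbp6 like Medag (1.00) and Igfbp7 like Col4a1 (0.99), the basement membrane collagen chain. By Spearman's rank order no member kept more than 1 of its 3 most alike genes.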

How the data were processed

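The 4 deposited tables give the authors' cluster means, with both libraries together and split by condition. The deposited values are in none of the usual units: they are linear means of UMIs per 10000 UMIs of a cell (unit other), read from the values, since every column sums to 10000. The submitters' processing notes name Cell Ranger 6.0.1, Seurat and mm10. Filters, doublet removal and clustering are not given in the sources used here, and doublets were not called here. Cell numbers were recovered from the weights that join split and joint means (tolerance 2e-09), and UMI totals of single cells, median 6986 in ligated and 6631 in mock, from genes whose cluster mean gives a whole total for 1 cell (tolerance 1e-06). They favour deep cells. Calendar dates had replaced 21 gene names, restored from the gene order of the joint table. Differences, size rule, background RNA and library means were computed in Python 3.11.15 with numpy 2.4.6, pandas 2.3.3 and scipy 1.17.1, and the scripts were tested on simulated data. Fold intervals are exact binomial ones on estimated UMI numbers. Clusters were named from 20 marker lists. Named genes are the members, pathway genes past the rule (at most 4 per cluster by size, with exceptions named as such) and the genes most alike in pattern. Members, lists and rules were chosen with earlier results of these data known. Alternatives were other pseudocounts, minimums, sizes and weightings, centring and background subtraction. No count model was fitted, since no counts per cell were used here.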

Additional observations from a re-analysis of the deposited data

How the results depend on the processing

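No paired analysis was possible because each group is 1 library. Of the 17 member differences past the rule in all cells, 8 were left with a pseudocount of 1, 8 with a minimum level of 2 and 6 with a size of 2. With background RNA subtracted 10 were past the rule, 8 higher and 2 lower: 9 of the 17, and Igfbp7 in T cell-like cells, which was not among them. The first 3 settings tighten the rule by construction. Of the 4 in the subset, 2, 2 and 1 were left under the first 3 settings, and 8 were past with no minimum. Over all genes the 3418 pairs became 821, 828, 1242 and, with no minimum, 8741, and the 1154 of the subset became 336, 339, 481 and 2602. The pathway counts of 18 and 12 became 2 and 2 with a pseudocount of 1 or a minimum of 2. Background subtraction moved the split of all pairs from 2129 higher and 1289 lower to 1321 and 1707, and in the subset from 609 and 545 to 506 and 638. With the fibroblast marker share subtracted, a setting chosen after seeing the data, 12 were past the rule, 8 higher and 4 lower. Under it Igfbp7 turned to -2.62 in the ductal-like cluster, and was -1.81 in macrophage-like and -1.38 in T cell-like cells, which were not past the rule as deposited. The cause was not tested. Centred on the median gene, the Igfbp5 difference in fibroblasts was just under the rule, and that of Igfbp3 in mural-like cells was past it at 1.07. With a pseudocount of 0.01 the latter was 1.08. Igfbp3 in mural-like cells was 1.54 in ligated and 0.723 in mock, beside library means of 7.39 and 5.33. Markers of other cell types stood there at a median of 22.6% and 9.97% of the library mean. Low levels limit Igf2 and Igfbp2 most, since many of their cluster values rest on fewer than 30 estimated UMIs.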

Other observations

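The second fibroblast-like cluster of the subset, with 17 ligated and 10 mock cells, was too small to be compared, and its values stand apart from those of the main fibroblast-like cluster. Igfbp5 stood there at 38.9 in the ligated library and 29.3 in mock and Igfbp6 at 28.4 and 27.5, while Igfbp7 was 2.62 and 2.66. Igfbp4 was 5.85 and 12.6 and Igf1 0.464 and 1.67. The fibroblast markers Dpt and Pi16 were among the 10 genes that led this cluster.

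The Schwann-like cluster had 271 ligated and 17 mock cells. Igfbp7 was 48.5 and 44.1 there. In the unnamed cluster led by acinar genes, with 264 and 25 cells, Igfbp7 was 33.2 and 2.60. Background RNA in this acinar-gene cluster was 99.2% (ligated) and 0% (mock). The ligated Igfbp7 level of 33.2 was below the ligated library mean of 39.3. Typical recovered UMI totals also differed, with medians of 1183 and 5440. The source of this Igfbp7 difference was not tested. In the unnamed cycling cluster, with 59 and 22 cells, Igfbp7 was 7.55 in the ligated library and 43.1 in mock.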
